A study of Mus musculus with 60 samples.

Results

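The TRAJ segments are the joining segments of the T cell receptor alpha (TCRA) chain, and they lie in a row along the DNA between the variable (TRAV) segments and the constant gene Trac. The 42 segments described here are all J segments named in the TCRA tables of CD4 and CD8 T cells except TRAJ18 and TRAJ33, ordered by number from the V side (5', high numbers) to the C side (3', low numbers). The CD4 table held 42 of them and the CD8 table held 41, out of 44 J names in all. They were carried by 60059 of 62533 clonotypes of the CD4 table and by 56686 of 59365 of the CD8 table. The tables list clonotypes, each with a TRAV, a TRAJ and the translated CDR3, the stretch of the chain that spans their join. The label of the joined tables names the amino acid sequence alone. Whether clonotypes with the same CDR3 but another TRAV or TRAJ were merged was not tested. In that case the TRAV and TRAJ listed would be those of a representative. Usage is the share of the listed reads of a library that carried a segment, in percent, and the 42 segments together held between 94.6% and 96.9% of every library.

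In a developing T cell, the first TRAV to TRAJ joins tend to use TRAV segments near the J array and TRAJ segments at its 5' end. As long as the receptor has not been selected, the same allele can be joined again, with a TRAV farther upstream and a TRAJ farther downstream, and each new join removes the DNA between. The position of the TRAJ in a mature T cell therefore keeps a trace of how far this process had moved along the array. The J segment also codes for the last residues of CDR3, which contact the peptide and the major histocompatibility complex, so a segment's usage can also follow which receptors were selected and which cells expanded.

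The libraries came from C57BL/6 donor T cells of 3 genotypes. WT carried no deletion, STAT3ko lacked the transcription factor STAT3, deleted with STAT3 fl/fl and a CD4-Cre transgene that acts in T cells, and STAT3koPD-1ko also lacked the inhibitory receptor PD-1 in all cells (PD-1-/-). Each table had 1 spleen library per genotype, labelled before hematopoietic cell transplantation (HCT) and titled naive, and 2 liver and 2 gut libraries per genotype from day 6 after HCT into lethally irradiated WT BALB/c mice, which also received WT C57BL/6 bone marrow depleted of T cells. The methods name 2 batches, which the labels do not tie to replicate numbers, so batches could not be compared. Every day 6 sample pooled 3 recipients, and the cells were sorted as H-2Kb+TCRβ+ CD4+ or CD8+. Ages and the number of donor mice per genotype were not given in the sources used here, so genotype and donor mice cannot be told apart. The tables hold receptor sequences alone, so the sorted cell type was not checked against marker genes.

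The libraries were not all independent. Of the listed clonotypes of a spleen library, 62.3% to 88.8% were also listed in liver replicate 1 of the same genotype, against 28.3% to 43.5% in liver replicate 1 of another genotype. For gut replicate 1 these shares were 67.7% to 80.2% against 41.8% to 52.6%. Gut replicate 1 also held 70.5% to 81.2% of the clonotypes of liver replicate 1 and 66.5% to 80.6% of those of liver replicate 2 of the same genotype, against at most 51.4% in another genotype. Whether such libraries shared mice or were mixed is not given in the sources used here and was not tested. The 4 day 6 libraries of a genotype may therefore hold fewer than 4 independent samples, and the 15 libraries of a cell type fewer than 15. Tests that count these libraries as independent can give p-values that are too small. Liver replicates 1 and 2 shared no more within a genotype (32.0% to 43.1%) than between genotypes (29.6% to 46.9%). In gut replicate 2, clonotypes found in at least 2 libraries, the only ones listed, made up 79.5% to 83.5% of the reads, and in the other libraries at least 90.8%. The main counts and positions are given with and without these libraries, and p-values measure the spread between the libraries, which may in part be technical. A library listed between 6748 and 27874 clonotypes, and since the tables give fractions, the read depth is unknown.

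The 42 segments span 60.6 kb of chromosome 14 (GRCm38, the mm10 assembly, plus strand), at a median spacing of 1.29 kb, and their order by number was their order by coordinate in all 42. Each is a single short J exon of 54 to 66 bases. In the 41 other than TRAJ54, the first 26 to 35 bases (median 30) end with the conserved codon that closes CDR3. TRAJ54 is annotated as a pseudogene, and no such end was found in it. It was in 1 clonotype of the CD4 table, at no more than 0.000603% of a library, and was absent from the CD8 table. The segments that the results turn on are shown 5' to 3' from the GENCODE transcripts, with the bases that can enter CDR3 in capitals and the framework bases behind them in lower case. The first 5 come from the 5' part of the array.
TRAJ58, chr14:54157280-54157342: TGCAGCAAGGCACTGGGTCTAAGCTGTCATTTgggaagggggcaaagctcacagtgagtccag
TRAJ57, chr14:54158507-54158569: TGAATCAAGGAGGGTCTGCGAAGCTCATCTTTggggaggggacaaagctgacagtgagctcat
TRAJ56, chr14:54159263-54159325: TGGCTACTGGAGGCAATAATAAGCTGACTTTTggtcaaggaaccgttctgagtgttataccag
TRAJ53, chr14:54162644-54162709: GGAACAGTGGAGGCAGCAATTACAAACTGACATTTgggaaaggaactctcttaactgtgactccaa
TRAJ47, chr14:54171800-54171856: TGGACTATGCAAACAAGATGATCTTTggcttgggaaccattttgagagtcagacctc
The next 5 are from the middle part and were the most used segment of the CD4 table (TRAJ31) or of the CD8 table (TRAJ22), or differed most between the cell types.
TRAJ31, chr14:54187895-54187951: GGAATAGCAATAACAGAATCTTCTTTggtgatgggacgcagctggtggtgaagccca
TRAJ30, chr14:54189866-54189924: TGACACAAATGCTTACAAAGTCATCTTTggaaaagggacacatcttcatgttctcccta
TRAJ27, chr14:54192303-54192361: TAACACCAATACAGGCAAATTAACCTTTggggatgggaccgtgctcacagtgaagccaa
TRAJ26, chr14:54194490-54194549: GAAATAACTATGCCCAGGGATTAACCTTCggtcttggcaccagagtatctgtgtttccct
TRAJ22, chr14:54197248-54197307: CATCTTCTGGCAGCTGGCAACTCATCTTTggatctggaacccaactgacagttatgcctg
The last 5 are from the 3' part, where TRAJ2 was the last segment used.
TRAJ13, chr14:54205741-54205797: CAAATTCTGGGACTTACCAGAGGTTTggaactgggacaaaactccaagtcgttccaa
TRAJ12, chr14:54206553-54206610: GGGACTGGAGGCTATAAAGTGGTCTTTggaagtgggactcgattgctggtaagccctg
TRAJ9, chr14:54209393-54209450: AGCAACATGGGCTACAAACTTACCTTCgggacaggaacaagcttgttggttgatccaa
TRAJ7, chr14:54211470-54211528: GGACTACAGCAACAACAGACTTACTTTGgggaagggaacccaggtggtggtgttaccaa
TRAJ2, chr14:54217836-54217901: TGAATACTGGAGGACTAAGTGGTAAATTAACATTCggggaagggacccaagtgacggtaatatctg

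Usage was uneven from segment to segment, and the most used segments of both cell types lay in the middle of the array. Over the 3 spleen CD4 libraries the segment with the highest mean usage was TRAJ31, at 8.08% in WT, 6.23% in STAT3ko and 5.49% in STAT3koPD-1ko (6.60% ± 1.34, SD, n = 3). It was followed by TRAJ37 (5.83% ± 1.03), TRAJ27 (5.41% ± 0.373), TRAJ23 (5.19% ± 0.186) and TRAJ22 (4.77% ± 0.359). In the STAT3koPD-1ko library TRAJ37, at 6.79%, was above TRAJ31, so the order of these neighbours was not larger than their spread. The segments used least in spleen CD4 cells, beside TRAJ54 at 0, were TRAJ35 (0.487% ± 0.173), TRAJ38 (0.505% ± 0.149), TRAJ5 (0.532% ± 0.0936) and TRAJ2 (0.601% ± 0.204). Little used segments lay beside much used ones, as TRAJ38 did beside TRAJ37.

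In spleen CD8 cells TRAJ22 led with 11.2% in WT, 9.36% in STAT3ko and 8.54% in STAT3koPD-1ko (9.70% ± 1.36), above TRAJ26 (5.96% ± 1.03) in every library. TRAJ30 (4.99% ± 0.459), TRAJ23 (4.81% ± 0.493) and TRAJ31 (4.23% ± 1.04) came next and overlapped with TRAJ26 and with each other. The least used were TRAJ2 (0.319% ± 0.0460), TRAJ35 (0.449% ± 0.247), TRAJ28 (0.596% ± 0.0450), TRAJ38 (0.622% ± 0.164) and TRAJ5 (0.681% ± 0.401). TRAJ35, TRAJ38, TRAJ5 and TRAJ2 were thus among the least used in both cell types.

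Both ends of the array were used. At the 5' end, spleen CD4 usage was 0.862% ± 0.258 for TRAJ58, 1.95% ± 0.396 for TRAJ57 and 1.92% ± 0.677 for TRAJ56, and spleen CD8 usage 0.688% ± 0.152, 1.35% ± 0.131 and 1.21% ± 0.599. At the 3' end, TRAJ4 held 1.42% ± 0.758 of spleen CD4 and 2.13% ± 1.27 of spleen CD8 usage, with the highest value in WT in both. Across members, mean usage and TRAJ number had a Spearman correlation of -0.09 in CD4 (42 members) and -0.13 in CD8 (41 members), a description over segments measured in the same libraries.

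For a view by position, the array was divided into a 5' part (TRAJ42 and higher), a middle part (TRAJ41 to TRAJ22) and a 3' part (TRAJ21 and lower). The 5' part held 22.1% ± 2.55 of CD4 usage (SD, n = 15 libraries) and 21.02% ± 1.52 of CD8 usage. The middle part held 48.7% ± 0.941 and 48.0% ± 1.14, and the 3' part 25.5% ± 2.29 and 26.4% ± 2.37. At the first border the spleen CD4 values of TRAJ43 and TRAJ42 (2.50% ± 0.615 and 2.41% ± 0.521) lay beside those of TRAJ40 and TRAJ39 (3.42% ± 0.286 and 2.54% ± 0.640). At the second, TRAJ23 and TRAJ22 stood above TRAJ21 (3.37% ± 0.451) and TRAJ17 (2.37% ± 0.279), so the middle part ended in 2 of its most used segments.

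**Figure D1:**
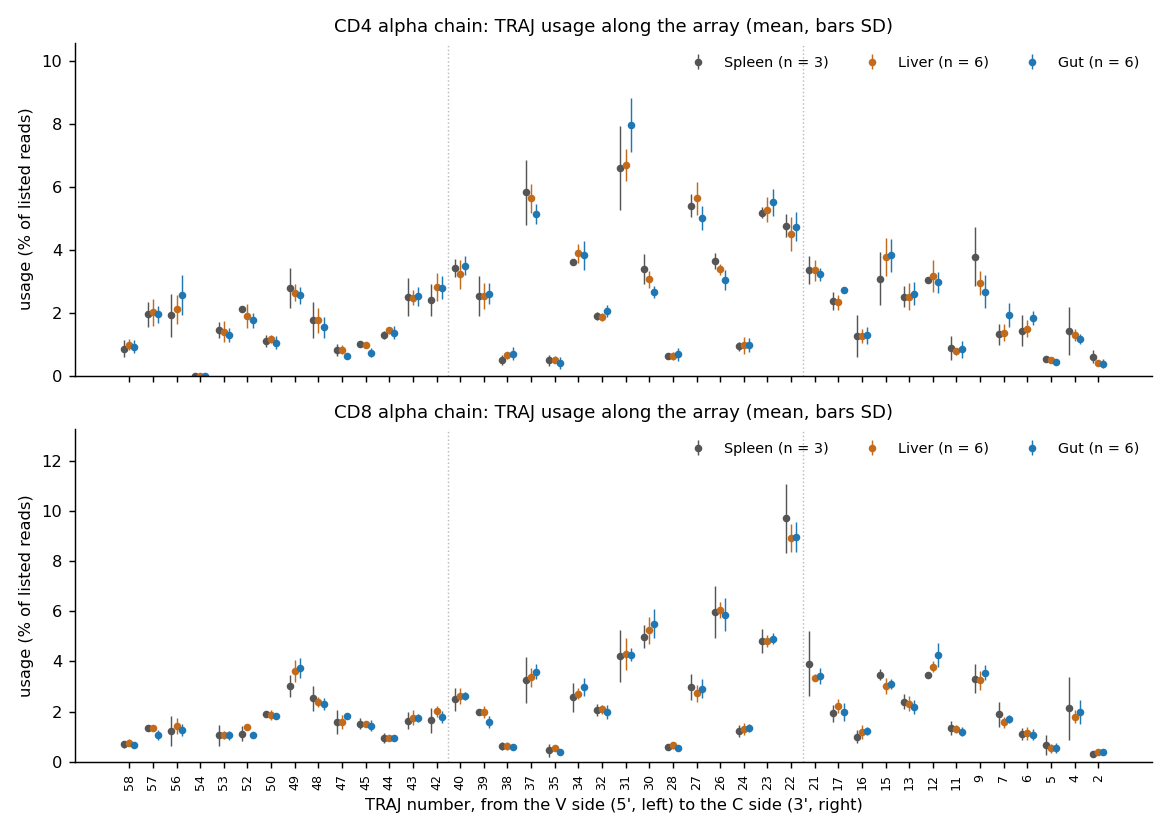
Usage of each TRAJ segment in percent of listed reads (vertical axis) against TRAJ number from the V side to the C side, for CD4 (top) and CD8 (bottom), as the mean and SD of 3 spleen, 6 liver and 6 gut libraries, with dotted lines at the borders of the 3 parts. TRAJ31 stands highest in CD4 and TRAJ22 in CD8, TRAJ38, TRAJ35, TRAJ28, TRAJ5 and TRAJ2 lie low in both, and the 3 sites lie close together at most segments.

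TRAV and TRAJ position went together in every library. The TRAJ position of a group of clonotypes is summarised as the mean TRAJ number weighted by usage, in which a higher value is farther 5'. Clonotypes with TRAV17, TRAV19 or TRAV21/DV12, 3 of the TRAV segments nearest to the J array, had a mean TRAJ number higher by 27.1 ± 2.74 (SD, n = 15) than clonotypes with TRAV1 or TRAV2, 2 of the farthest, in CD4 libraries. The difference lay between 21.4 and 31.0 in single libraries. In CD8 libraries it was 22.7 ± 1.37 and lay between 20.3 and 25.2. It was above 0 in 15 of 15 libraries of each table (exact two-sided sign-flip permutation test, p = 6.1e-05, the smallest this test can give, adjusted p = 0.000458 over the 15 tests of position). Among clonotypes of the 3 near TRAV segments, 82.3% ± 5.54 of CD4 and 78.8% ± 4.02 of CD8 usage was in the 5' part and 0.863% ± 0.533 and 1.69% ± 2.05 in the 3' part. Among those with TRAV1 or TRAV2, the 5' part held 1.91% ± 2.08 and 3.10% ± 3.44 and the middle part 52.6% ± 8.48 and 67.8% ± 9.09.

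Beyond these, the TRAV segments with at least 20 clonotypes in every library numbered 61 in CD4 and 68 in CD8. Their mean TRAJ number and their distance to Trac had a Spearman correlation of -0.735 in CD4 and -0.732 in CD8, a description over TRAV segments of the same libraries. The mean TRAJ number of TRAV21/DV12, 344 kb from Trac, was 49.9 ± 1.31 in CD4 and 49.4 ± 1.25 in CD8. TRAV19, at 375 kb, had 49.5 ± 1.099 and 48.1 ± 2.10, and TRAV17, at 413 kb, had 46.2 ± 3.61 and 43.9 ± 1.47. TRAV3-4, at 443 kb, stood apart from its neighbours with 30.3 ± 2.74 and 28.1 ± 2.00, while TRAV14-3, at 457 kb, had 46.2 ± 1.16 and 45.4 ± 2.49. TRAV4-1, among the farthest at 1613 kb, also went against the relation, with 47.2 ± 4.01 in the 14 CD4 libraries and 46.3 ± 2.45 in the 11 CD8 libraries in which it had 20 clonotypes, and so is not in the correlation. TRAV3-4, TRAV14-3 and TRAV4-1 were named after their values were seen. Many TRAV genes of this strain have near-identical copies in a duplicated stretch (names with D or N), and how reads were divided among copies was not tested.

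**Figure D2:**
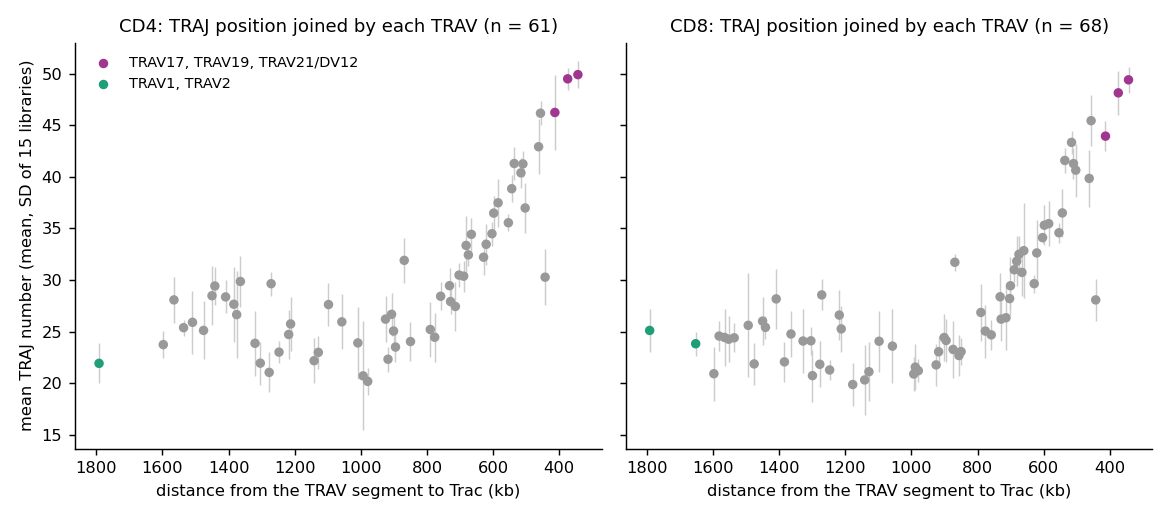
Mean TRAJ number joined by each TRAV segment (vertical axis, mean and SD of 15 libraries) against the distance of that TRAV to Trac in kb (horizontal axis, nearest at the right), for 61 TRAV in CD4 and 68 in CD8, with TRAV17, TRAV19 and TRAV21/DV12 in one colour and TRAV1 and TRAV2, where among these, in another. TRAV segments near the J array lie highest, up to 49.9 in CD4 and 49.4 in CD8, and the lowest means are 20.2 and 19.9.

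The J segments differed in what they gave to the junction. The median CDR3 length of a segment's clonotypes ranged from 39 to 45 bases in CD4 and from 39 to 48 in CD8 and followed the number of germline bases up to the conserved codon (Spearman 0.861 in CD4 and 0.858 in CD8 over the 41 members other than TRAJ54, a description). CDR3 averaged 41.3 ± 0.180 bases in CD4 and 42.4 ± 0.292 in CD8 for the 5' part and 39.7 ± 0.101 and 39.8 ± 0.178 for the 3' part (SD, n = 15). Germline J bases missing from the 5' side of the join averaged 3.36 ± 0.144 and 3.02 ± 0.118 in the 5' part and 2.50 ± 0.177 and 2.55 ± 0.161 in the 3' part. These counts rest on the representative nucleotide sequence listed for each clonotype.

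CD8 cells used TRAJ segments farther 3' than CD4 cells did, on average. The mean TRAJ number was 29.97 ± 1.14 in CD4 (SD, n = 15, from 28.3 to 32.1) and 28.7 ± 0.853 in CD8 (from 26.6 to 29.7), a difference of -1.31 that was larger than the spread (two-sided permutation test with 100000 resamples, p = 0.00095, adjusted p = 0.00475 over 15 tests), although the ranges overlapped. TRAV17, TRAV19 and TRAV21/DV12 held 4.33% ± 0.729 of CD4 and 1.80% ± 0.283 of CD8 usage. TRAV use as a whole did not move 1 way. TRAV16N, named after its values were seen, held 3.14% of CD4 and 25.9% of CD8 member usage. Its mean TRAJ number in CD8 was 31.7 ± 0.823, above the CD8 mean of 28.7. Without TRAV17, TRAV19 and TRAV21/DV12 the CD8 minus CD4 difference in mean TRAJ number was -0.775 (permutation p = 0.0334), and with TRAV usage held equal over 56 TRAV segments it was -0.988 (permutation p = 0.00059). Without liver replicate 1, gut replicate 1 or gut replicate 2 of all genotypes it was -1.24, -1.29 and -1.31 (permutation p = 0.00328, 0.00559 and 0.00709).

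The shift was not one slope along the array. Of 39 members tested, 13 were higher and 19 lower in CD8 than in CD4 (limma, adjusted p under 0.05), against 80.5% of all 41 TRAJ segments tested, and 32 were called in each of the 30 fits that left out 1 library. Without gut replicate 2 of all genotypes 31 of 40 members tested were called, and without gut replicate 1 30 of 39. TRAJ15, TRAJ13 and TRAJ9 were lost in the former, and TRAJ15 and TRAJ9 in the latter. In the 5' part 5 were higher and 8 lower of 13, in the middle part 4 higher and 7 lower of 14, and in the 3' part 4 higher and 4 lower of 12. Neighbours often differed in opposite directions, since TRAJ50, TRAJ49, TRAJ48, TRAJ47 and TRAJ45 were all higher in CD8 while TRAJ58 to TRAJ52 and TRAJ44 to TRAJ42 were lower.

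TRAJ47 had the largest difference. Its usage ran from 0.539% to 1.03% (median 0.717%) in CD4 and from 1.27% to 2.14% (median 1.69%) in CD8, with no overlap, a log2 difference of 1.08 ± 0.08 (SE, adjusted p = 7.05e-14, limma). TRAJ22 ran from 3.72% to 5.32% (median 4.57%) in CD4 and from 7.92% to 11.2% (median 8.95%) in CD8, a log2 difference of 0.95 ± 0.05. TRAJ26 (0.83), TRAJ30 (0.82) and TRAJ50 (0.72) were also higher in every CD8 library than in any CD4 library. TRAJ22, TRAJ26 and TRAJ30 together lie within the last stretch of the middle part, interleaved with segments that went the other way.

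Among the segments lower in CD8, TRAJ27 lay between 2.38% and 3.36% (median 2.82%) in CD8 and between 4.52% and 6.36% (median 5.28%) in CD4, a log2 difference of -0.89 ± 0.06 (adjusted p = 2.07e-14, limma). TRAJ31, the leading CD4 segment, lay between 3.04% and 4.96% in CD8 and between 5.49% and 9.50% in CD4 (-0.74 ± 0.07). TRAJ37 (-0.66) and TRAJ57 (-0.64) did not overlap either, while TRAJ56 (-0.74) did. In all, 9 of the 39 members did not overlap between the 15 CD4 and the 15 CD8 libraries, against 22% of all 41 TRAJ segments tested. With each clonotype counted once, in place of its reads, the log2 difference of TRAJ27 was -0.54, that of TRAJ31 -0.44, that of TRAJ56 -0.47 and that of TRAJ47 0.76. TRAJ23, TRAJ15 and TRAJ13 were then no longer called, and TRAJ15 went from -0.19 to 0.03 and TRAJ13 from -0.15 to 0.05. The members not past the threshold were TRAJ38, TRAJ32, TRAJ28, TRAJ21, TRAJ16, TRAJ7 and TRAJ5.

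**Figure D3:**
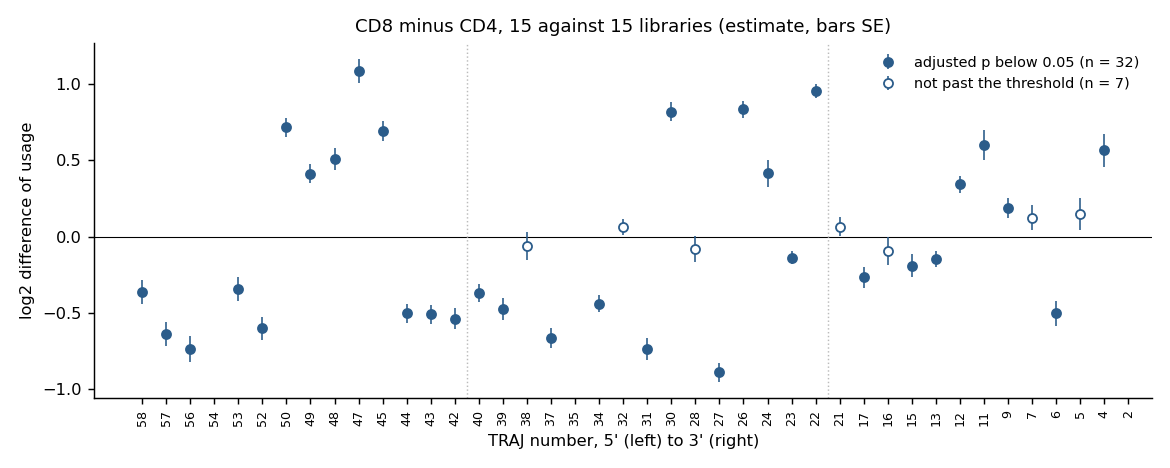
Log2 difference of usage, CD8 minus CD4 (vertical axis, estimate and SE from limma, 15 against 15 libraries), against TRAJ number from 5' to 3', with filled points for the 32 members past the threshold and open points for the 7 others. Runs of lower segments alternate with higher ones, from 1.08 at TRAJ47 to -0.89 at TRAJ27.

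By genotype, the mean TRAJ number weighted by reads was ordered WT, STAT3ko, STAT3koPD-1ko in both cell types, with the double knockout farthest 5'. In CD4 cells on day 6 the WT libraries had 28.9 and 29.0 in the liver and 28.8 and 29.1 in the gut. The STAT3ko libraries had 30.3 and 29.6 in the liver and 29.9 and 29.4 in the gut. Highest were the STAT3koPD-1ko libraries, with 32.1 and 30.9 in the liver and 31.4 and 30.6 in the gut. The 3 genotypes did not overlap. Their means were 29.0 ± 0.132, 29.8 ± 0.358 and 31.2 ± 0.672 (SD, n = 4 each). The 3 spleen CD4 libraries had 28.3, 29.7 and 31.7 in the same order. With each clonotype counted once the day 6 means were 30.4 ± 0.108, 31.0 ± 0.338 and 31.6 ± 0.482, STAT3ko overlapped with both other genotypes, and 4 of the 5 sets of same-named libraries kept the order. The difference between STAT3koPD-1ko and WT was then 1.196 in place of 2.26 (exact permutation p = 0.0556), that between STAT3koPD-1ko and STAT3ko 0.646 in place of 1.42 (exact permutation p = 0.111) and that between STAT3ko and WT 0.550 in place of 0.846 (exact permutation p = 0.111).

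Each pair of genotypes in CD4 gave p = 0.0556 (exact two-sided permutation test within site, 36 arrangements), the smallest p this design allows, and an adjusted p of 0.104 over 15 tests, so no pair passed the threshold. A test of all 3 genotypes at once, added after the values were seen, gave p = 0.000741 on day 6 (exact permutation test within site, 8100 arrangements). Without gut replicate 1 of all genotypes, which shared clonotypes with liver and spleen, it gave an exact permutation p of 0.0111 (540 arrangements). The share of the 5' part had the same order, which was not tested, from 19.9% ± 0.372 in WT to 21.4% ± 1.01 in STAT3ko and 25.0% ± 1.55 in STAT3koPD-1ko, and the 3' part went from 27.5% ± 0.438 to 25.8% ± 1.02 and 23.3% ± 1.30, while the middle part lay at 48.8%, 48.9% and 48.3%. The share of TRAV17, TRAV19 and TRAV21/DV12 was 3.72% ± 0.261, 4.09% ± 0.506 and 5.08% ± 0.436. With TRAV usage held equal the mean TRAJ numbers were 29.1 ± 0.0827, 29.9 ± 0.346 and 30.7 ± 0.830. STAT3koPD-1ko minus WT was then 1.57 (exact permutation p = 0.0556) and STAT3koPD-1ko minus STAT3ko 0.817 in place of 1.42 (exact permutation p = 0.167). Without liver replicate 1, gut replicate 1 or gut replicate 2 of all genotypes, STAT3koPD-1ko minus WT was 1.96, 2.16 and 2.52 and STAT3ko minus WT 0.693, 0.750 and 1.01, each at an exact permutation p of 0.167, the smallest that 12 arrangements allow.

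In CD8 cells on day 6 the means were 28.0 ± 0.407 in WT, 28.9 ± 0.510 in STAT3ko and 29.2 ± 0.337 in STAT3koPD-1ko. WT and STAT3koPD-1ko did not overlap, and STAT3ko overlapped with both. The pairs gave p = 0.0556 for STAT3ko and for STAT3koPD-1ko against WT and p = 0.167 between the knockouts (same exact permutation test, adjusted p = 0.104, 0.104 and 0.278). The added test of all 3 gave p = 0.00222 (exact permutation, 8100 arrangements) and p = 0.0222 without gut replicate 1, but p = 0.0778 without gut replicate 1 when TRAV usage was held equal. STAT3ko minus WT was 0.885, and it was 0.554 without liver replicate 1 of all genotypes (exact permutation p = 0.167, the smallest possible) and 0.533 with TRAV usage held equal (exact permutation p = 0.111). STAT3koPD-1ko minus WT went from 1.18 to 0.877 and 0.862 in these settings, and STAT3koPD-1ko minus STAT3ko from 0.295 to 0.173 without gut replicate 2 of all genotypes and to 0.0667 without STAT3ko gut replicate 2 alone. With each clonotype counted once the CD8 means were 29.1 ± 0.185, 29.8 ± 0.307 and 29.9 ± 0.420, and 2 of 3 sites kept the order of the genotypes. STAT3koPD-1ko minus STAT3ko was then 0.131 in place of 0.295 (exact permutation p = 0.722). The spleen CD8 libraries had 26.6, 28.9 and 29.7. STAT3koPD-1ko minus WT was 3.11 between the single spleen libraries, 1.46 in liver and 0.904 in gut, and in CD4 it was 3.39, 2.50 and 2.02. That genotypes differed more or less by site was not tested for this measure.

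**Figure D4:**
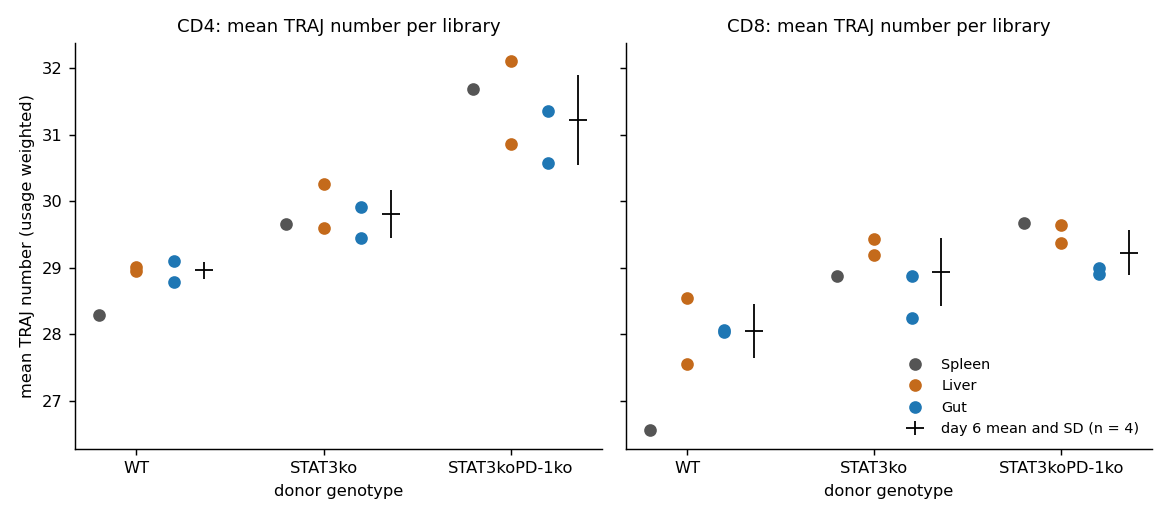
Mean TRAJ number of each library (vertical axis, usage weighted, higher is farther 5'), by donor genotype and coloured by site, for CD4 (left) and CD8 (right), with the mean and SD of the 4 day 6 libraries. In CD4 the genotypes form 3 steps around 29.0, 29.8 and 31.2 on day 6, and in CD8 the steps are smaller, from 28.0 to 29.2.

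Segment by segment, the difference between STAT3koPD-1ko and WT in day 6 CD4 cells lay at both ends of the array. Of 38 members tested, 5 were higher and 4 lower in STAT3koPD-1ko (limma, adjusted p under 0.05), against 25% of the 40 TRAJ segments tested. All 5 higher segments, TRAJ58, TRAJ57, TRAJ56, TRAJ53 and TRAJ48, were among the 13 of the 5' part, and all 4 lower ones, TRAJ13, TRAJ12, TRAJ9 and TRAJ7, were among the 11 of the 3' part. Of the 14 of the middle part 0 were called. The median log2 difference was 0.29 in the 5' part, -0.04 in the middle and -0.27 in the 3' part, against -0.01 over all TRAJ segments tested.

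TRAJ56 changed most. Its usage was 1.78% and 1.70% in WT liver and 1.89% and 2.19% in WT gut, and 2.72% and 2.70% in STAT3koPD-1ko liver and 3.71% and 2.77% in gut, so that every STAT3koPD-1ko library lay above every WT library. The log2 difference was 0.62 ± 0.10 (SE, adjusted p = 0.000577, limma). A clonotype of TRAV7D-5 with TRAJ56 held 0.743% of STAT3koPD-1ko gut replicate 1 and made 17.4% of the difference of the means. It was listed in 3 of 4 STAT3koPD-1ko and 2 of 4 WT libraries, and its CDR3, with the bases that match germline TRAJ56 from the 3' end in capitals, was as follows.
TRAV7D-5 with TRAJ56: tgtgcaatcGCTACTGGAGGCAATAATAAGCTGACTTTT

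TRAJ53 had 1.19% and 1.18% in WT liver and 1.22% and 1.17% in WT gut, against 1.86% and 1.75% in STAT3koPD-1ko liver and 1.61% and 1.56% in gut, a log2 difference of 0.48 ± 0.09 (adjusted p = 0.00236, limma). TRAJ58 averaged 0.842% ± 0.0557 in WT and 1.18% ± 0.0511 in STAT3koPD-1ko (log2 0.44 ± 0.10), and TRAJ57 1.75% ± 0.173 and 2.41% ± 0.178 (0.44 ± 0.10), both without overlap. TRAJ48 averaged 1.36% ± 0.0765 and 1.96% ± 0.483 (0.46 ± 0.14), with 1 STAT3koPD-1ko gut library, at 1.26%, below all WT libraries.

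Of the lower segments, TRAJ13 had 3.05% and 2.82% in WT liver and 2.93% and 2.88% in WT gut, against 1.82% and 2.52% in STAT3koPD-1ko liver and 2.34% and 2.14% in gut (log2 -0.40 ± 0.11, adjusted p = 0.0165, limma), without overlap. TRAJ9 averaged 3.31% ± 0.216 in WT and 2.49% ± 0.413 in STAT3koPD-1ko (-0.41 ± 0.10), TRAJ7 1.76% ± 0.253 and 1.34% ± 0.426 (-0.40 ± 0.13) and TRAJ12 3.48% ± 0.407 and 2.75% ± 0.335 (-0.33 ± 0.11). These 3 overlapped between the genotypes by 1 or more libraries.

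The calls differed in how far they held. TRAJ56 and TRAJ53 stayed past the threshold in 12 of 12 fits without 1 library and in 13 of 13 other settings. TRAJ58, TRAJ57 and TRAJ9 did so in 12 of 12 and 11 of 13, and were lost without liver replicate 1, and without gut replicate 1, of all genotypes, which each left 2 of the 9 calls. Without WT liver replicate 1, and without STAT3koPD-1ko liver replicate 1, 5 of the 9 calls were left, and TRAJ48, TRAJ13, TRAJ12 and TRAJ7 were those lost. TRAJ48 was also lost without WT liver replicate 2 or STAT3koPD-1ko gut replicate 1, TRAJ12 without either replicate 2 in liver of these 2 genotypes, WT gut replicate 1 or STAT3koPD-1ko gut replicate 2, and TRAJ7 without liver replicate 2 of WT or STAT3ko or gut replicate 1 of WT or STAT3koPD-1ko. With every TRAJ tested, whatever its usage, TRAJ48 and TRAJ7 were lost. TRAJ12 was lost with usage as a fraction of all reads, and TRAJ7 with the spleen libraries included. With each clonotype counted once, the log2 difference of TRAJ56 was 0.15, that of TRAJ53 0.15, that of TRAJ57 0.22, that of TRAJ58 0.28, that of TRAJ9 -0.19 and that of TRAJ12 -0.17, all still past the threshold, while TRAJ48, TRAJ13 and TRAJ7 were not.

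STAT3koPD-1ko differed from STAT3ko at much the same end. Of 38 members, 4 were higher (TRAJ53 0.51 ± 0.09, TRAJ56 0.46 ± 0.10, TRAJ58 0.43 ± 0.10 and TRAJ57 0.41 ± 0.10, log2 ± SE) and 1 was lower (TRAJ7, -0.44 ± 0.13) in CD4 cells (limma, adjusted p from 0.00232 to 0.0269), against 15% of all TRAJ segments tested. TRAJ53 lay between 1.56% and 1.86% in STAT3koPD-1ko and between 1.05% and 1.35% in STAT3ko, without overlap. This comparison shares the STAT3koPD-1ko libraries with the one above. TRAJ7 was lost without liver or gut replicate 1 of STAT3koPD-1ko, without liver or gut replicate 2 of STAT3ko, and with every TRAJ tested. With each clonotype counted once none of the 5 was called, and without liver replicate 1, or gut replicate 1, of all genotypes 1 was.

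Between STAT3ko and WT in CD4 cells 0 of 38 members passed the threshold (limma, 0% of all TRAJ segments tested), and 1, TRAJ9, had an unadjusted p under 0.05, with a log2 difference of -0.32 ± 0.10 and an adjusted p of 0.301. For the 5 segments higher in STAT3koPD-1ko the STAT3ko minus WT values were 0.01 for TRAJ58, 0.04 for TRAJ57, 0.16 for TRAJ56, -0.03 for TRAJ53 and 0.24 for TRAJ48. The median difference was 0.10 in the 5' part, 0.02 in the middle and -0.11 in the 3' part.

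In CD8 cells no member passed the threshold in any of the 3 genotype comparisons (limma, 0 of 39 and 0% of all TRAJ segments tested in each), with 4, 6 and 3 members at an unadjusted p under 0.05 for STAT3ko minus WT, STAT3koPD-1ko minus WT and STAT3koPD-1ko minus STAT3ko. For STAT3koPD-1ko minus WT, TRAJ56 had 0.807% and 1.38% in WT liver and 1.22% and 1.01% in WT gut, against 1.67% and 1.68% in STAT3koPD-1ko liver and 1.53% and 1.52% in gut, without overlap, a log2 difference of 0.52 ± 0.14 with an adjusted p of 0.0764 (limma). TRAJ9 had -0.29 ± 0.09 and the same adjusted p. In the 3' part 11 of 12 members lay below 0 and in the 5' part 9 of 13 above 0. A test of whether the genotype differences themselves differed between CD8 and CD4 called 0 of 39 members (limma F test without pairing of CD4 and CD8 libraries, 5 at an unadjusted p under 0.05, and 4 on the CD8 minus CD4 difference of same-named libraries, where 0 were called too). Genotype by site called 0 of 38 members in CD4 and 0 of 39 in CD8 (limma F test, 1 at an unadjusted p under 0.05 in each).

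**Figure D5:**
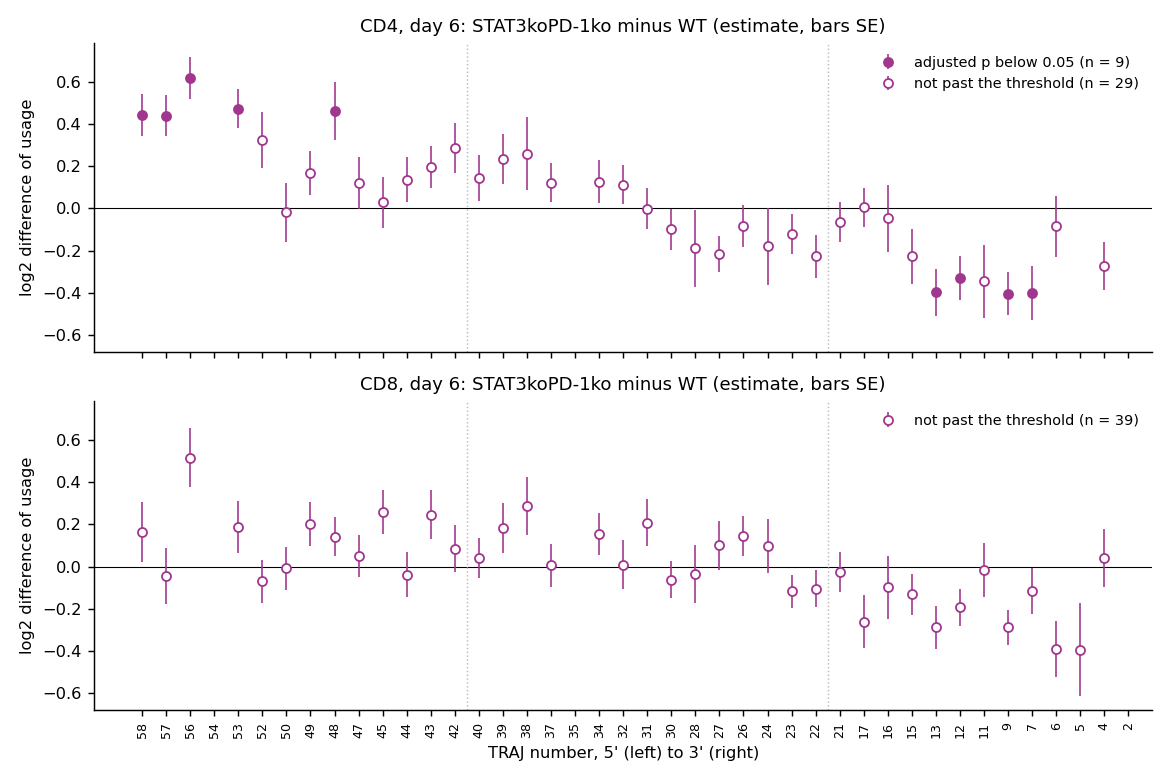
Log2 difference of usage, STAT3koPD-1ko minus WT on day 6 (vertical axis, estimate and SE from limma, 4 against 4 libraries), against TRAJ number from 5' to 3', for CD4 (top) and CD8 (bottom), with filled points past the threshold. In CD4 the points go from 0.62 at TRAJ56 at the 5' end to -0.41 at TRAJ9 at the 3' end, with 9 filled, and in CD8 none is filled.

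By site, no difference in position along the array passed the test over all libraries. In CD4 the mean TRAJ number was 29.9 ± 1.71 in spleen (n = 3), 30.1 ± 1.21 in liver and 29.9 ± 0.965 in gut (n = 6 each). In CD8 it was 28.4 ± 1.62, 29.0 ± 0.782 and 28.5 ± 0.452. The 6 comparisons of sites gave p between 0.264 and 0.976 (exact two-sided permutation tests over libraries of all genotypes, whose spread includes that between genotypes). With sites permuted within genotype, a test chosen after seeing the data, p lay between 0.0926 and 0.926 (exact permutation, 216 arrangements for gut against liver, 27 for the others). Gut minus liver in CD8 had the smallest of these p, at a difference of -0.429, and without WT liver replicate 1, which lay low in the 5' part, it was -0.710 (exact permutation p = 0.0325 over all genotypes). Gut minus liver in CD4 was -0.266, and it was 0.130 without STAT3koPD-1ko liver replicate 1 and 0.0422 without liver replicate 1 of all genotypes. The largest difference was liver minus spleen in CD8, at 0.585, which was -0.320 without the WT spleen library and 1.24 without that of STAT3koPD-1ko. In CD4, liver minus spleen was 0.249 and gut minus spleen -0.0166, and without the WT spleen library they were -0.543 and -0.809, without that of STAT3koPD-1ko 1.15 and 0.887.

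A few single segments differed between gut and the other sites in CD4. Of 38 members, TRAJ7 was higher and TRAJ45 lower in gut than in liver (limma, adjusted p = 0.0228 and 0.0249), against 5% of all TRAJ segments tested. TRAJ7 ran from 0.919% to 1.58% in liver and from 1.29% to 2.47% in gut (log2 0.46 ± 0.11), and TRAJ45 from 0.846% to 1.11% and from 0.545% to 0.962% (-0.39 ± 0.10), with overlap in both. Against spleen, TRAJ7 (0.52 ± 0.14) and TRAJ56 (0.42 ± 0.11) were higher and TRAJ9 (-0.48 ± 0.11), TRAJ45 (-0.43 ± 0.12) and TRAJ30 (-0.33 ± 0.10) lower in gut (limma, adjusted p from 0.0222 to 0.0359), against 12.5%. In spleen, TRAJ7 had 1.09% in WT, 1.69% in STAT3ko and 1.15% in STAT3koPD-1ko.

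One clonotype of TRAV14N-3 with TRAJ7 made 38.8% of the gut minus liver and 45.6% of the gut minus spleen difference of TRAJ7. It held 0.350% of gut usage (listed in 6 of 6 libraries), 0.136% of liver usage (6 of 6) and 0.0707% of spleen usage (3 of 3). Its CDR3 of 39 bases kept 27 of the 28 germline TRAJ7 bases up to the conserved codon, shown in capitals.
TRAV14N-3 with TRAJ7: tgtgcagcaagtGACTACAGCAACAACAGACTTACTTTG

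None of these calls held when each clonotype was counted once, where the log2 difference of TRAJ7 was 0.08 against liver and 0.14 against spleen. None held without gut replicate 2 of all genotypes either. With usage as a fraction of all reads TRAJ7 and TRAJ56 were not called against spleen. Both calls against liver were lost without liver replicate 1 of all genotypes, and without gut replicate 1 of all genotypes TRAJ45 was lost against liver and TRAJ45, TRAJ56 and TRAJ30 against spleen. Without the STAT3koPD-1ko liver replicate 1, or without the STAT3ko liver replicate 2, neither TRAJ7 nor TRAJ45 was called between gut and liver, and TRAJ45 was also lost without liver replicate 2 of WT or STAT3koPD-1ko, STAT3ko gut replicate 1 or WT gut replicate 2. Without STAT3koPD-1ko gut replicate 1, 4 members were called. Against spleen, TRAJ7 and TRAJ56 were lost without the WT spleen library, TRAJ9 without that of STAT3ko, TRAJ45 without either knockout's and TRAJ30 without that of WT or STAT3koPD-1ko, WT gut replicate 1 or any 1 of the gut replicates 2. TRAJ45 was also lost against spleen with a pseudocount of 1. Between liver and spleen 0 of 38 CD4 members passed (limma, 0% of all TRAJ segments tested, 2 at an unadjusted p under 0.05).

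In CD8 cells 1 of 39 members differed between gut and liver, against 2.44% of all TRAJ segments tested. TRAJ52 ran from 1.17% to 1.52% in liver and from 0.921% to 1.26% in gut, a log2 difference of -0.36 ± 0.08 (adjusted p = 0.023, limma). It was not called with each clonotype counted once, and it was lost without any 1 of liver replicate 2 or gut replicate 2 of each genotype. Against spleen, 0 of 39 members passed in liver and 0 of 39 in gut (limma, 0% of all TRAJ segments tested, 4 at an unadjusted p under 0.05 in each).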

How the data were processed

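T cell receptor alpha chain sequences were measured in 30 libraries, 15 of CD4 and 15 of CD8 T cells, prepared with the SMARTer mouse TCR kit. The authors aligned reads and assembled clonotypes with MiXCR and joined the libraries of a cell type with VDJtools. The deposited joined tables give each clonotype as a fraction of a library's reads, beside a count of the libraries that hold it, and list only clonotypes in at least 2 libraries. That count reached 18, more than the 15 libraries given for a cell type. It therefore includes libraries not described here, and a listed clonotype need not be in 2 of the 15. CD4 and CD8 were joined separately. No read totals are given, so depth and counting error are unknown. The mm10 build is named in the submitters' processing notes.

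Allele suffixes were dropped, and the fractions of all clonotypes with a TRAJ segment were summed and divided by the column total (usage, in percent). Those whose usage averaged 0.5% or more were tested with limma 3.58.1 (R 4.3.3) on log2(usage + 0.1), which understates changes of little used segments, with Benjamini-Hochberg adjustment over all TRAJ segments tested in a table and contrast, at 0.05. This kept 38 of 42 members in CD4 (not TRAJ54, TRAJ35, TRAJ5 and TRAJ2) and 39 of 41 in CD8. In limma, sites were compared over all genotypes, with genotype as a covariate, and genotypes on day 6 with site as a covariate. Position was tested with permutation tests, exact except between CD4 and CD8 (100000 resamples), with genotypes permuted within site and sites without a covariate, and adjusted over 15 tests. Coordinates and sequences came from GENCODE vM21 (GRCm38). TRAJ18 and TRAJ33 were left out of the members but kept among the segments tested. The genes named were the 5 most and least used per table, the 3 at each end, the 2 beside each border, and up to 5 called per direction and contrast. On simulated data of the STAT3koPD-1ko minus WT comparison in CD4, with 40 segments of which 10 were changed by 0.6 (log2), 91.6% were recovered, with 0.3 false calls on average. The simulated libraries were independent of each other, unlike those measured. Of the members called in that comparison only TRAJ56 (0.62) reached 0.6, and the recovery of smaller changes was not tested. Members, parts and lists were chosen with earlier results of these data known. The shared replicate numbers were checked for pairing, and the correlations of deviations from the group means ran from -0.359 to 0.270, so the numbers were not used as pairs, except in 1 form of the tests of CD8 against CD4 effects that is named with its unpaired form. Alternatives were the pseudocount, the filter, counting each clonotype once, the library minimum, canonical CDR3 only, the denominator, a replicate block, and leaving out libraries.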

Additional observations from a re-analysis of the deposited data

Results flagged for a closer look

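Of 60 groups of 4 to 10 libraries examined for a library far from the others by Dixon's ratio, of which chance flags about 1 in 20, 5 held one. In CD8 liver, the 5' part held 18.7% of usage in WT replicate 1, against 21.4% to 22.8% in the other libraries. Among the 4 CD8 WT libraries of day 6, gut replicate 2 stood apart with 47.9% of usage in the middle part and with a mean TRAJ number 23.4 higher for TRAV17, TRAV19 and TRAV21/DV12 than for TRAV1 and TRAV2. In the latter the WT spleen library, which was not in this group, had 23.0. In the share of reads in listed clonotypes, gut replicate 2 lay lowest among the day 6 libraries of CD8 WT (79.5%) and of CD8 STAT3ko (80.1%).

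The gut minus liver difference of TRAJ47 differed between CD8 and CD4 by 0.52 on the log2 scale (adjusted p = 0.022 with CD4 and CD8 libraries not paired, chosen after seeing the data, and 0.0395 on the CD8 minus CD4 difference of same-named libraries, limma). In CD4, TRAJ47 usage was 0.633% ± 0.0697 in gut and 0.823% ± 0.147 in liver, and in CD8 1.83% ± 0.123 and 1.59% ± 0.274 (SD, n = 6 each). Neither cell type alone passed the threshold (limma, log2 -0.32 with adjusted p = 0.0543 in CD4, 0.20 with adjusted p = 0.244 in CD8).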

How the results depend on the processing

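Across the alternatives, 244 summary values kept their direction and their side of the threshold or moved little, 29 moved, 5 had an unadjusted p newly under 0.05 and 5 changed sign, and of the values of single segments, with up to 5 named per direction and comparison, 309 held, 60 lost the call and 1 changed sign. Part of the 244 could not change side. For mean TRAJ number between genotypes on day 6, no exact permutation p could lie below 0.0556, so only the direction could differ. Comparisons of 3 spleen with 3 liver or gut libraries could not pass either. Counts of called segments changed as follows. With a pseudocount of 1, the count was 4 for gut minus liver in CD4 (2 in the report), 3 for gut minus liver in CD8 (1), 3 for STAT3koPD-1ko minus WT in CD8 (0) and 1 for STAT3koPD-1ko minus STAT3ko in CD8 (0). For gut minus liver in CD4 it was 6 with every TRAJ tested (4 higher, 2 lower) and 6 with usage as a fraction of all reads (1 higher, 5 lower), and for gut minus spleen in CD4 the latter gave 0 higher and 4 lower. With each clonotype counted once it was 0 for gut minus liver in CD4 and CD8, gut minus spleen in CD4 (5) and STAT3koPD-1ko minus STAT3ko in CD4 (5), 1 for STAT3ko minus WT in CD4 (0) and 3 for STAT3koPD-1ko minus WT in CD8. With clonotypes in at least 3 libraries it was 0 for gut minus liver in CD8. Without liver replicate 1 of all genotypes it was 0 for gut minus liver in CD4, 2 for STAT3koPD-1ko minus WT in CD4 (9) and 1 for STAT3koPD-1ko minus STAT3ko in CD4. Without gut replicate 1 of all genotypes, an alternative chosen after seeing the data, it was 1 for gut minus liver, 2 for gut minus spleen, 2 for STAT3koPD-1ko minus WT and 1 for STAT3koPD-1ko minus STAT3ko in CD4, and 3 for gut minus liver and 1 for gut minus spleen (0) in CD8. Without gut replicate 2 it was 0 for gut minus liver and gut minus spleen in CD4 and gut minus liver in CD8, 3 for STAT3ko minus WT in CD8 (0) and 1 for STAT3koPD-1ko minus WT in CD8. With spleen included the last was 4. The cause was not tested, beyond the fewer libraries.

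For the mean TRAJ number, gut minus liver in CD4 became 0.0422 and liver minus spleen -0.0588 without liver replicate 1, gut minus spleen in CD4 0.0256 without the near TRAV segments and 0.140 without gut replicate 2, and gut minus spleen in CD8 -0.121 with each clonotype counted once. With spleen the genotype differences were 0.949, 2.49 and 1.54 in CD4 and 1.17 and 1.57 in CD8, each with an exact permutation p of 0.0278 not adjusted over the tests, against 0.0556 on day 6 alone. TRAJ9 in gut minus spleen changed sign, to 0.0737, with each clonotype counted once.

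Leaving out 1 library gave counts from 0 to 4 for gut minus liver in CD4, 3 to 5 for gut minus spleen in CD4, 5 to 10 for STAT3koPD-1ko minus WT and 4 to 7 for STAT3koPD-1ko minus STAT3ko in CD4, 0 to 3 for gut minus liver in CD8, and 0 to 1 for liver minus spleen and for the 3 genotype comparisons in CD8. The mean TRAJ number ranged from -0.565 to 0.130 for gut minus liver, -0.543 to 1.15 for liver minus spleen and -0.809 to 0.887 for gut minus spleen in CD4, and from -0.710 to -0.292, -0.320 to 1.24 and -0.749 to 0.807 in CD8. For STAT3ko minus WT, STAT3koPD-1ko minus WT and STAT3koPD-1ko minus STAT3ko it ranged from 0.696 to 0.964, 1.97 to 2.48 and 1.12 to 1.63 in CD4 and from 0.718 to 1.11, 1.01 to 1.34 and 0.0667 to 0.459 in CD8, and for CD8 minus CD4 from -1.43 to -1.16.

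With a replicate block, 3 segments were called for gut minus liver in CD8, the other counts stayed within 1.5 times, and gut minus liver in mean TRAJ number in CD4 stayed at -0.266 (exact permutation p = 0.0625). The replicate numbers were not shown to pair the libraries. Without read totals, counting error could not be separated from the spread between libraries.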
